A study of Mus musculus with 12 samples.

Results

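The genes described are Hand1, Hand2, Foxf1, Isl1, Pdgfra, Kdr, Flt1, Etv2, Lmo2 and Tal1, 10 genes of lateral plate and vascular mesoderm that were taken by name from the 24736 genes measured. Of these, 9 had enough reads to be tested, together with 14196 genes in all, and Hand2 did not. The study asked how the amount of the transcription factor SOX2 changes the response of epiblast-like cells to WNT signalling. Mouse embryonic stem cells were differentiated for 72 h, and polyadenylated RNA of 12 such cultures was sequenced, in 4 groups of 3 biological replicates. Every culture, the controls included, received bFGF at 10 ng/ml and, at 5 µM, LGK974, an inhibitor of WNT secretion. EpiLC (epiblast-like cells) were wild type and received no further factor. CEpiLC (caudal epiblast-like cells) were wild type and received in addition CHIR99021, which inhibits GSK3 and so switches on the WNT pathway, from day 2 to day 3. SOX2-OFF and SOX2-ON also received CHIR99021, and both came from the SOX2 TetON line, which has the genotype Sox2-/-. In that line the endogenous gene was ablated by gene editing, rtTA is expressed from the Rosa26 locus, and a Sox2 transgene in the HPRT locus depends on doxycycline. It was grown from cells picked as clones after editing, and the wild-type cells were HM1 TetON, the male line it was made from. Doxycycline was withdrawn for differentiation in SOX2-OFF and kept at 1 µg/ml in SOX2-ON. These 2 groups therefore differed in doxycycline as well as in SOX2, and in every comparison with EpiLC or CEpiLC the cell line differed too. No SOX2 TetON culture without CHIR99021 was analysed here.

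Mesoderm leaves the primitive streak in a series of fates, of which the lateral plate gives rise to heart, limb and body wall mesenchyme and the vascular lineage to endothelium and blood. HAND1, HAND2, FOXF1 and ISL1 are transcription factors known from lateral plate and cardiac progenitors. ETV2 is an ETS factor needed for endothelial and blood fates, while TAL1 and its partner LMO2 act in a complex that specifies blood. KDR and FLT1 are receptors for VEGF, and PDGFRA is a receptor for PDGF that is found on much early mesoderm and also on primitive endoderm.

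The libraries held between 10408252 and 27337740 expected counts, which sets the counting precision behind each value. The targeted gene, Sox2, read 119 to 171 TPM (the share of all transcripts, scaled for gene length) in EpiLC, 7.78 to 13.7 in CEpiLC, 12.3 to 21.2 in SOX2-OFF and 173 to 215 in SOX2-ON. Reads of the transgene and of RNA from the edited endogenous gene cannot be told apart in these values. T, the primitive streak marker, read 0.45 to 0.68 TPM in EpiLC, 474 to 892 in CEpiLC, 792 to 830 in SOX2-OFF and 138 to 172 in SOX2-ON. Expression of whole chromosomes differed between the lines. The median log2 difference of the SOX2 TetON from the wild-type libraries was 0.61 on chromosome 8, which carries Hand2 and Foxf1, and -0.52 on chromosome 11, which carries Hand1, but was no more than 0.034 in size on the chromosomes of the other 7 genes. Chromosome 6, which carries none of the 10 genes, differed by 0.58. CEpiLC replicate 3 stood apart from the other CEpiLC libraries, with a summed level of 14 paraxial mesoderm genes of 1139 TPM against 279 and 366. SOX2-ON replicate 3 did so for 19 markers of extraembryonic endoderm, with 1647 TPM against 663 and 784. Where leaving out 1 of these 2 libraries changed a call of the 10 genes, or moved a called fold of theirs or a list's count by over 1.5 times, the value without it is given beside the result. In such bulk samples, fewer cells of a type and less RNA per cell cannot be told apart.

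The promoters of 4 genes with large changes are shown as the 250 bases before the transcription start, 5′ to 3′, from RefSeq in the build GRCm38.p6 (mm10). Capitals mark matches, on either strand, to the SOX letters ACAATG or ACAAAG, the TCF/LEF letters TCAAAG, the T-box letters AGGTGT or the GATA letters AGATAA. Etv2 lies at chr7:30635853-30636102 on the minus strand, Tal1 at chr4:115056176-115056425 on the plus strand, Flt1 at chr5:147726012-147726261 on the minus strand and Pdgfra at chr5:75152001-75152250 on the plus strand, and 0 transcripts of the GENCODE annotation overlapped any of them. The windows of Etv2, Flt1 and Pdgfra lie within the bounds that RefSeq gives the gene, which start further upstream, and that of Tal1 lies outside them.
Etv2: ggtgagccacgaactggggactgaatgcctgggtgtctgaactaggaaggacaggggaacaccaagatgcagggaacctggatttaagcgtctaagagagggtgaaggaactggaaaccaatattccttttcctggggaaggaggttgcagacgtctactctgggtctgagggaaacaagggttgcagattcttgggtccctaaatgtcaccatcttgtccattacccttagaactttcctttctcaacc
Tal1: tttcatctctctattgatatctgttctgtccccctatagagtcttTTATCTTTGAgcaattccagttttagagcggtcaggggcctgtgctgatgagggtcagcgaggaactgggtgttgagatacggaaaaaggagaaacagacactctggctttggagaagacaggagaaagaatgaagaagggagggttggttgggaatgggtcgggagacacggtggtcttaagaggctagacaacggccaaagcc
Flt1: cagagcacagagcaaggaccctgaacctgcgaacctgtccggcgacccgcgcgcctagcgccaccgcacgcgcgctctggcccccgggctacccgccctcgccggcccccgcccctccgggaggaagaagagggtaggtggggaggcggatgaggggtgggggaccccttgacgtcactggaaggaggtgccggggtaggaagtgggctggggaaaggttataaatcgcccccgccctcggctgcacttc
Pdgfra: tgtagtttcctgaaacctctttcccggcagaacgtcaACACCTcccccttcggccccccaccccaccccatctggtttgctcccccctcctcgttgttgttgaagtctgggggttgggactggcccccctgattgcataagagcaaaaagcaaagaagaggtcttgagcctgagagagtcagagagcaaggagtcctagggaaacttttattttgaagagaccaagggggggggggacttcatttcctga
RefSeq windows were found for 7 of the 10 genes, in 8 windows because Tal1 had a further start within the gene. None of the 8 windows held the SOX letters, which 25.2% of all 32851 promoter windows of this length held. The Tal1 window shown held the GATA letters at 205 bases and the TCF/LEF letters at 201 bases before the start, both on the reverse strand and overlapping each other. Pdgfra held the T-box letters at 213 bases before the start, and Hand2 (chr8:57320733-57320982, plus strand) held the GATA letters at 172 bases. The TCF/LEF, T-box and GATA letters were found in 13.8, 11.8 and 9.99% of all windows. The windows of Etv2, Flt1, Kdr and Isl1 and the second start of Tal1 held none of these letters.

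The genes differed in their course across the groups. Hand1 and Isl1 were highest in SOX2-OFF, Pdgfra and Lmo2 were low in EpiLC and higher wherever CHIR99021 had been added, Etv2 and Tal1 were highest in CEpiLC and low in both SOX2 TetON groups, and Flt1 was lowest in CEpiLC and highest in SOX2-ON. Kdr, Foxf1 and Hand2 stayed at or below 2.8 TPM in every library. Differences were tested by the quasi-likelihood test of edgeR, adjusted over the 14196 genes after Benjamini and Hochberg, and genes with an adjusted p up to 0.05 count as called. From EpiLC to CEpiLC, 4 of the 9 genes tested rose and 1 fell, where 22.1% of all genes rose and 20.1% fell. In SOX2-OFF, 5 were higher and 3 lower than in CEpiLC, where 23.6% of all genes were higher and 24.9% lower. In SOX2-ON, 1 was higher and 5 were lower than in CEpiLC, where 27.9% of all genes were higher and 28.6% lower. Between SOX2-ON and SOX2-OFF, 2 were higher in SOX2-ON and 2 lower, where 14.8% of all genes were higher and 14.1% lower. The median log2 difference of the 9 genes was 0.86, 1.52, -1.10 and -0.64 in these comparisons, in that order, against -0.01 to 0.01 for all genes tested. The comparisons share groups and are not independent of each other.

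**Figure D1:**
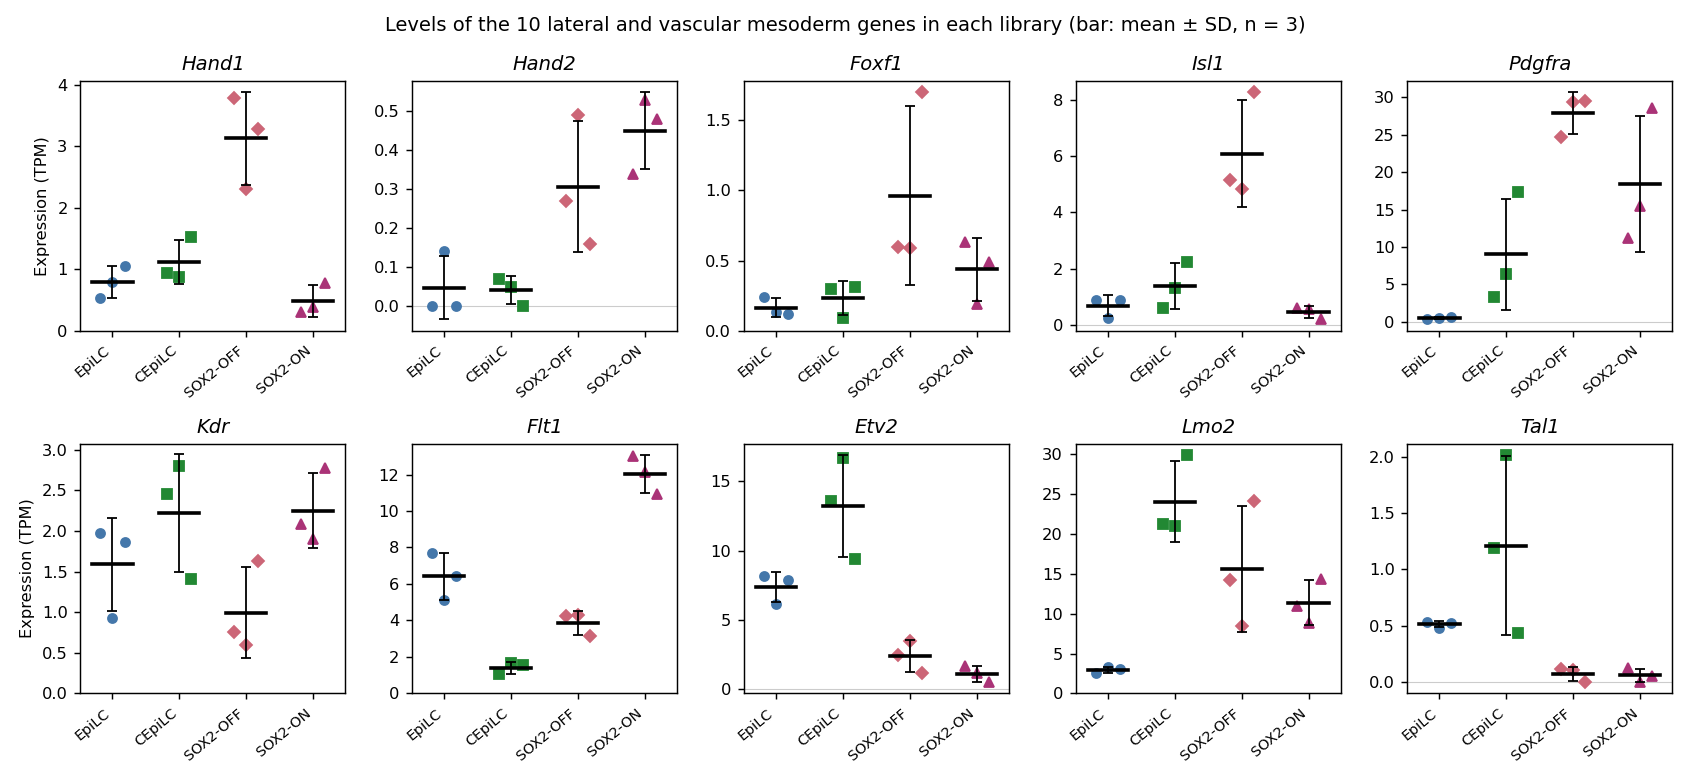
Level in TPM (vertical axes, linear, a scale for each gene) of the 10 genes in the 12 libraries, in the groups EpiLC, CEpiLC, SOX2-OFF and SOX2-ON. Points are libraries and bars give the mean ± SD (n = 3). Hand1 and Isl1 stand out in SOX2-OFF, Flt1 in SOX2-ON, and Etv2 and Tal1 are low in both SOX2 TetON groups.

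Hand1 and Isl1, factors of lateral plate and cardiac progenitors, were higher in SOX2-OFF than in any other group. Isl1 read 0.88, 0.25 and 0.89 TPM in EpiLC and 0.6, 1.32 and 2.23 in CEpiLC, while the SOX2-OFF libraries read 5.15, 4.85 and 8.28 and the SOX2-ON libraries 0.6, 0.56 and 0.19. All 3 SOX2-OFF values lay above all 9 others. Isl1 was higher in SOX2-OFF than CEpiLC by a log2 difference of 2.27 (SE 0.46, adjusted p = 0.00115, edgeR), and SOX2-ON was lower than SOX2-OFF, with -3.77 (SE 0.52, adjusted p = 0.000142, edgeR). SOX2-ON was also lower than CEpiLC, with -1.51 (SE 0.58, adjusted p = 0.0403, edgeR), but that call was lost without CEpiLC replicate 2 (adjusted p = 0.0822), CEpiLC replicate 3 (0.142), SOX2-ON replicate 2 (0.0632) or SOX2-ON replicate 3 (0.136), and in a fit of those 6 libraries alone (0.0533). The values of these groups touched at 0.6 TPM. From EpiLC to CEpiLC the log2 difference of Isl1 was 0.94 (SE 0.55, adjusted p = 0.189, edgeR), with overlapping values.

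Hand1 followed a like course at a lower level. It read 0.53, 0.79 and 1.06 TPM in EpiLC and 0.94, 0.88 and 1.53 in CEpiLC, while the SOX2-OFF libraries read 3.79, 2.31 and 3.29 and the SOX2-ON libraries 0.3, 0.38 and 0.78. The SOX2-OFF values again lay above all others. Hand1 was higher in SOX2-OFF than CEpiLC by a log2 difference of 1.56 (SE 0.34, adjusted p = 0.00206, edgeR), and lower in SOX2-ON than SOX2-OFF by -2.73 (SE 0.38, adjusted p = 0.000156, edgeR). SOX2-ON was lower than CEpiLC with -1.18 (SE 0.42, adjusted p = 0.0291, edgeR). Hand1 lies on chromosome 11, and once the shift of that chromosome between the lines was taken out, the difference of SOX2-ON from CEpiLC was -0.64 and was no longer called (adjusted p = 0.223). It was not called either without CEpiLC replicate 3 (0.0852), SOX2-ON replicate 1 (0.107) or SOX2-ON replicate 2 (0.0901), or in a fit of those 6 libraries alone (0.0549). Hand1 and Isl1 correlated over the 12 libraries with Pearson's r = 0.83 of log2 CPM (library-scaled counts), a description only, since the libraries share 4 groups.

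Foxf1 and Hand2 were at the edge of detection. Foxf1, a forkhead factor of splanchnic lateral plate, read 0.24, 0.13 and 0.12 TPM in EpiLC and 0.3, 0.09 and 0.31 in CEpiLC, while the SOX2-OFF libraries read 0.6, 0.59 and 1.7 and the SOX2-ON libraries 0.63, 0.19 and 0.49, from at most 23 counts. SOX2-OFF lay above CEpiLC in every library, and its highest value came from replicate 3. The log2 difference of 1.97 between these groups (SE 0.59, adjusted p = 0.0145, edgeR) was lost without SOX2-OFF replicate 3 (1.34, adjusted p = 0.0721), without CEpiLC replicate 2 (1.57, adjusted p = 0.0567), and when the shift of chromosome 8 was taken out (1.38, adjusted p = 0.0773). SOX2-ON against SOX2-OFF gave -1.08 (SE 0.54, adjusted p = 0.152, edgeR), and against CEpiLC 0.89 (SE 0.64, adjusted p = 0.258, edgeR). Hand2, a bHLH factor of heart and limb, had 0, 3 and 0 counts in EpiLC, 2, 1 and 0 in CEpiLC, while the SOX2-OFF libraries read 5, 10 and 2 and the SOX2-ON libraries 7, 10 and 9. It was too low to be tested with the other genes. Its summed counts for the effective library size were 7.07 times as high in SOX2-OFF as in CEpiLC (exact 95% counting interval 2.05 to 37.7) and 9.21 times as high in SOX2-ON (2.82 to 47.6), intervals that cover counting error only and compare these libraries alone. Hand2 also lies on chromosome 8, and the part of that shift in its ratio was not tested. SOX2-ON and SOX2-OFF gave a ratio of 1.3 (0.681 to 2.56), so that a difference between them was not detectable at this depth.

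Other genes of lateral plate and heart did not share 1 course. Of 17 such genes, 12 were tested, of which 4 were higher and 1 was lower in SOX2-OFF than CEpiLC, with a median log2 difference of 0.40. For all genes the shares higher and lower were 23.6 and 24.9% there. They were 27.9 and 28.6% in SOX2-ON against CEpiLC, and 14.8 and 14.1% in SOX2-ON against SOX2-OFF. Mesp1, which marks the earliest cardiac mesoderm, read 0 TPM in all EpiLC libraries, 0.23, 0.92 and 5.13 in CEpiLC, while the SOX2-OFF libraries read 10, 7.37 and 17.2 and the SOX2-ON libraries 0, 0 and 0.25. It was thus high where Hand1 and Isl1 were, and higher in SOX2-OFF than CEpiLC by 2.81 (SE 0.75, adjusted p = 0.00924, edgeR). Gata4, with 0.52, 1.08 and 2.48 TPM in CEpiLC and 23.5, 29.1 and 27.6 in SOX2-OFF, and Msx2 were higher by 4.55 (SE 0.37, adjusted p = 8.67e-07, edgeR) and 3.53 (SE 0.41, adjusted p = 1.33e-05, edgeR). Mef2c, a transcription factor of cardiac and vascular genes, fell by 1.78 (SE 0.20, adjusted p = 1.24e-05, edgeR). In SOX2-ON, 4 of the 12 were higher and 3 lower than in CEpiLC, with a median of 0.17, and between SOX2-ON and SOX2-OFF 2 were higher and 2 lower, with a median of 0.24. Without CEpiLC replicate 3, 1 was lower in SOX2-ON than CEpiLC, and without SOX2-ON replicate 3, 4 were lower in SOX2-ON than SOX2-OFF. Tbx4 and Tbx20 were higher in SOX2-ON than SOX2-OFF by 1.64 (SE 0.25, adjusted p = 0.000322, edgeR) and 2.02 (SE 0.38, adjusted p = 0.00133, edgeR), while the WNT ligand gene Wnt2 was lower by -4.74 (SE 0.97, adjusted p = 0.00268, edgeR). The cardiac genes Nkx2-5, Tbx5 and Tnnt2 were too low to be tested and read at most 1.21 TPM in any library. Gata4 also stands among the markers of extraembryonic endoderm, which moved with the SOX2 TetON groups as given next.

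Pdgfra was nearly absent in EpiLC and had the highest mean level of the 10 genes in SOX2-OFF (27.9 ± 2.75 TPM, SD, n = 3) and SOX2-ON (18.4 ± 9.03). It read 0.35, 0.46 and 0.63 TPM in EpiLC and 3.34, 6.33 and 17.4 in CEpiLC, while the SOX2-OFF libraries read 24.7, 29.4 and 29.6 and the SOX2-ON libraries 11.2, 15.5 and 28.6. The EpiLC values lay below all others, SOX2-OFF lay above CEpiLC, and SOX2-ON overlapped with both. Pdgfra rose from EpiLC to CEpiLC by a log2 difference of 4.21 (SE 0.66, adjusted p = 0.000229, edgeR), and was higher in SOX2-OFF than CEpiLC by 1.71 (SE 0.46, adjusted p = 0.00737, edgeR). Without CEpiLC replicate 3 these were 3.34 (adjusted p = 0.000112) and 2.59 (adjusted p = 5.28e-05). SOX2-ON differed from CEpiLC by 1.07 (SE 0.46, adjusted p = 0.0611, edgeR) and from SOX2-OFF by -0.64 (SE 0.43, adjusted p = 0.294, edgeR), neither of which was called. Without CEpiLC replicate 3, the difference of SOX2-ON from CEpiLC was 1.94 and was called (adjusted p = 0.000343), as it was without SOX2-ON replicate 1 (1.31, adjusted p = 0.0372) and with no filter on low counts (1.08, adjusted p = 0.0366). With the replicate number as a block in the model, SOX2-ON differed by 1.16 from CEpiLC (adjusted p = 0.00325, edgeR) and by -0.79 from SOX2-OFF (adjusted p = 0.0361, edgeR).

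Marker genes of other cell types were high in the same library as Pdgfra in CEpiLC and SOX2-ON. In CEpiLC, replicate 3 had the highest Pdgfra and also the highest paraxial mesoderm level, where Msgn1, a factor of presomitic mesoderm, read 64.5, 95 and 364 TPM. In SOX2-ON, Pdgfra and the summed level of the 19 extraembryonic endoderm markers were both highest in replicate 3, with Gata6, a factor of primitive endoderm, at 27.9, 33.2 and 69.7 TPM. That sum was 276 to 315 TPM in EpiLC, 191 to 217 in CEpiLC, 1429 to 1788 in SOX2-OFF and 663 to 1647 in SOX2-ON. Of its 17 genes tested, 16 were higher in SOX2-OFF than CEpiLC and 15 in SOX2-ON, where 23.6 and 27.9% of all genes were higher. In SOX2-ON 1 was higher and 7 were lower than in SOX2-OFF, where 14.8% of all genes were higher and 14.1% lower. Without SOX2-ON replicate 3, 0 of the 17 were higher and 15 lower in SOX2-ON than SOX2-OFF. Cubn, Amn, Hnf4a, Ttr and Apob were among the 16 higher in SOX2-OFF than CEpiLC. SOX2-OFF averaged 83.7 TPM for Cubn, 23.5 for Amn and 2.44 for Hnf4a, where CEpiLC averaged 0.15, 0.45 and 0. Afp and Apoa1 of the same list were too low to be tested and read at most 0.83 TPM in any library. In CEpiLC the endoderm sum was also highest in replicate 3 (217 TPM). In EpiLC it was lowest (276 TPM) in replicate 3, where Pdgfra was highest, but most of it was Sparc (218, 216 and 185 TPM). The single markers went both ways there, with Gata6 (0.15, 0.22 and 0.55 TPM) highest and Lrp2 (37.2, 33 and 19.9 TPM) lowest in replicate 3. In SOX2-OFF the sum was lowest in replicate 1 (1429 TPM), as Pdgfra was. It was 1788 and 1576 TPM in replicates 2 and 3, which read alike for Pdgfra. The part of such cells in the Pdgfra values was not tested. Markers of fibroblasts, on which the embryonic stem cells had been grown, summed to 130 to 248 TPM over 13 genes in EpiLC, 131 to 188 in CEpiLC, 44.9 to 105 in SOX2-OFF and 41.7 to 80.9 in SOX2-ON, so that the sum was lower in every SOX2 TetON library than in every wild-type library. In the wild-type libraries most of it came from Tagln, Acta2 and Thy1, and the single genes went both ways. Of 12 tested, 4 were higher and 3 lower in SOX2-ON than CEpiLC (median -0.06), where 27.9% of all genes were higher and 28.6% lower. Relative to EpiLC, 3 were higher and 3 lower in SOX2-ON (median 0.74), or 5 and 3 without SOX2-ON replicate 3, where 30.7% of all genes were higher and 29.1% lower with all 12 libraries. Within CEpiLC that sum was highest in replicate 3, as Pdgfra was, and within SOX2-ON it was lowest there. Fap, which defines activated fibroblasts, was at or below 0.08 TPM. Of 8 trophoblast markers, Tpbpa and Prl3d1 were at 0 in all 12 libraries, and the sum was 2.12 to 3.23 TPM in the wild type, 6.01 to 6.47 in SOX2-OFF and 5.9 to 18.1 in SOX2-ON.

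**Figure D2:**
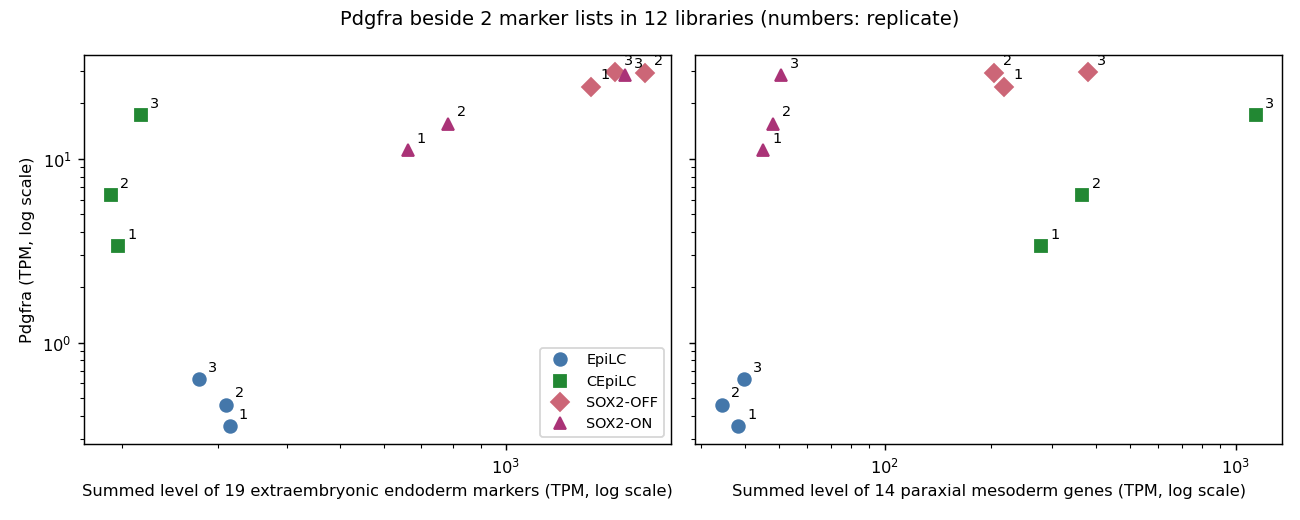
Pdgfra in TPM (vertical, log scale) in the 12 libraries against the summed TPM (horizontal, log scale) of 19 extraembryonic endoderm markers (left) and of 14 paraxial mesoderm genes (right), with the replicate number beside each point. CEpiLC replicate 3 is highest in its group for Pdgfra and for the paraxial genes, and SOX2-ON replicate 3 for Pdgfra and for the endoderm markers.

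Among the PDGF genes, the ligand Pdgfa rose with its receptor Pdgfra from EpiLC to CEpiLC. Pdgfa read 6.93, 5.32 and 6.49 TPM in EpiLC and 28.1, 17.2 and 13.5 in CEpiLC, while the SOX2-OFF libraries read 21.8, 21.6 and 19.6 and the SOX2-ON libraries 47.1, 52.5 and 63.3. It rose by a log2 difference of 1.70 from EpiLC to CEpiLC (SE 0.24, adjusted p = 9.92e-05, edgeR) and was higher in SOX2-ON than SOX2-OFF by 1.31 (SE 0.21, adjusted p = 0.000415, edgeR), where Pdgfra was not. The ligand Pdgfb fell by 1.88 (SE 0.33, adjusted p = 0.000622, edgeR) from EpiLC to CEpiLC, and Pdgfd did not pass the test in any of these comparisons. Pdgfrb, the other PDGF receptor, read 5.46, 6.6 and 6.06 TPM in CEpiLC, while the SOX2-OFF libraries read 3.17, 3.2 and 3.04 and the SOX2-ON libraries 0.96, 1.01 and 0.82. These 3 groups did not overlap, and Pdgfrb was lower in SOX2-ON than CEpiLC by -2.73 (SE 0.13, adjusted p = 1.23e-08, edgeR) and than in SOX2-OFF by -1.80 (SE 0.14, adjusted p = 1.27e-06, edgeR).

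Flt1, the VEGF receptor that binds the ligand tightly and signals little, was lowest in CEpiLC and highest in SOX2-ON. It read 7.69, 5.13 and 6.45 TPM in EpiLC and 1.04, 1.64 and 1.53 in CEpiLC, while the SOX2-OFF libraries read 4.22, 4.27 and 3.12 and the SOX2-ON libraries 13, 12.1 and 10.9. No value of any group lay within the range of another. Flt1 fell by 2.23 from EpiLC to CEpiLC (SE 0.20, adjusted p = 1.95e-06, edgeR). Relative to CEpiLC it was higher in SOX2-OFF by 1.52 (SE 0.20, adjusted p = 4.63e-05, edgeR) and in SOX2-ON by 3.10 (SE 0.20, adjusted p = 7.12e-08, edgeR), and SOX2-ON exceeded SOX2-OFF by 1.58 (SE 0.18, adjusted p = 2.93e-05, edgeR). Of the 10 genes it alone was called in all 6 comparisons between groups, and these calls held under every alternative run.

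Kdr, the main signalling receptor for VEGF and an early marker of the vascular lineage, was low throughout. It read 1.98, 0.93 and 1.86 TPM in EpiLC and 2.46, 2.8 and 1.41 in CEpiLC, while the SOX2-OFF libraries read 0.76, 0.59 and 1.63 and the SOX2-ON libraries 2.08, 1.9 and 2.77. CEpiLC replicate 3 read below SOX2-OFF replicate 3, so that these groups overlapped, whereas all SOX2-ON values lay above those of SOX2-OFF. Kdr was lower in SOX2-OFF than CEpiLC by -1.24 (SE 0.38, adjusted p = 0.0159, edgeR), a call that was lost without CEpiLC replicate 2 (adjusted p = 0.0568), SOX2-OFF replicate 1 (0.0692) or SOX2-OFF replicate 2 (0.0792). It was higher in SOX2-ON than SOX2-OFF by 1.19 (SE 0.38, adjusted p = 0.0322, edgeR), a call that was lost without SOX2-OFF replicate 1 (0.114), SOX2-OFF replicate 2 (0.139), SOX2-ON replicate 1 (0.06) or SOX2-ON replicate 3 (0.0891). SOX2-ON and CEpiLC differed by -0.05 (SE 0.34, adjusted p = 0.918, edgeR).

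Pdgfra and Kdr lie on chromosome 5 (75151322 to 75198206 and 75932827 to 75979072 in GRCm38.p6) on either side of Kit, a receptor gene of blood and germ cells at 75574987 to 75656722, and the 3 genes took different courses. Kit read 12.9, 18.9 and 15.3 TPM in EpiLC and 23.5, 19.3 and 15.7 in CEpiLC, while the SOX2-OFF libraries read 12, 16.3 and 11.2 and the SOX2-ON libraries 37.2, 47 and 40.2. It was higher in SOX2-ON than SOX2-OFF by 1.59 (SE 0.17, adjusted p = 1.85e-05, edgeR), as Kdr was and Pdgfra was not. The outer neighbours differed less there, with 0.02 for Chic2 (SE 0.11, adjusted p = 0.91, edgeR) beside Pdgfra and 0.08 for Srd5a3 (SE 0.12, adjusted p = 0.663, edgeR) beside Kdr. The nearest tested neighbours of Etv2 and Tal1 moved little beside the genes themselves. In SOX2-OFF against CEpiLC they gave 0.04 for Cox6b1 (SE 0.06) and -0.28 for Rbm42 (SE 0.09) on either side of Etv2, and 0.25 for Stil (SE 0.08) at 13.2 kb from Tal1.

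Vegfa encodes the main ligand of KDR and FLT1. It read 9.64 to 17.7 TPM in EpiLC, 12.5 to 18.3 in CEpiLC, 17 to 23.3 in SOX2-OFF and 19.1 to 22.7 in SOX2-ON. Vegfa was not called in any of the 4 comparisons shown in the heat map, but was called higher in SOX2-OFF and in SOX2-ON than in EpiLC. Vegfc, which binds FLT4 and KDR, rose from EpiLC to CEpiLC by 2.15 (SE 0.20, adjusted p = 2.8e-06, edgeR). The co-receptor Nrp2 read 2.44, 1.44 and 2.43 TPM in EpiLC and 57.9, 26.7 and 29 in CEpiLC, while the SOX2-OFF libraries read 26.5, 18.5 and 27.6 and the SOX2-ON libraries 70.8, 67.1 and 122. It rose by 4.19 from EpiLC to CEpiLC (SE 0.36, adjusted p = 1.4e-06, edgeR), where Flt1 fell, and was higher in SOX2-ON than SOX2-OFF by 1.77 (SE 0.29, adjusted p = 0.000557, edgeR), as Flt1 was. Flt4, the receptor of lymphatic endothelium, was lower in SOX2-OFF and SOX2-ON than CEpiLC by -1.59 (SE 0.16, adjusted p = 5.66e-06, edgeR) and -1.45 (SE 0.16, adjusted p = 6.81e-06, edgeR). Of the 13 VEGF and PDGF genes listed beside the receptors described above, 6 rose and 2 fell from EpiLC to CEpiLC, 3 were higher and 3 lower in SOX2-OFF than CEpiLC, 4 were higher and 2 lower in SOX2-ON than CEpiLC, and 2 were higher and 2 lower in SOX2-ON than SOX2-OFF. Their median log2 differences in these comparisons were 0.39, 0.08, 0.02 and 0.01. Of all genes, 22.1% rose and 20.1% fell from EpiLC to CEpiLC. The shares of all genes higher and lower were 23.6 and 24.9%, 27.9 and 28.6%, and 14.8 and 14.1% in the other comparisons, in that order. The counts in SOX2-OFF against CEpiLC and in SOX2-ON against SOX2-OFF were near these shares.

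**Figure D3:**
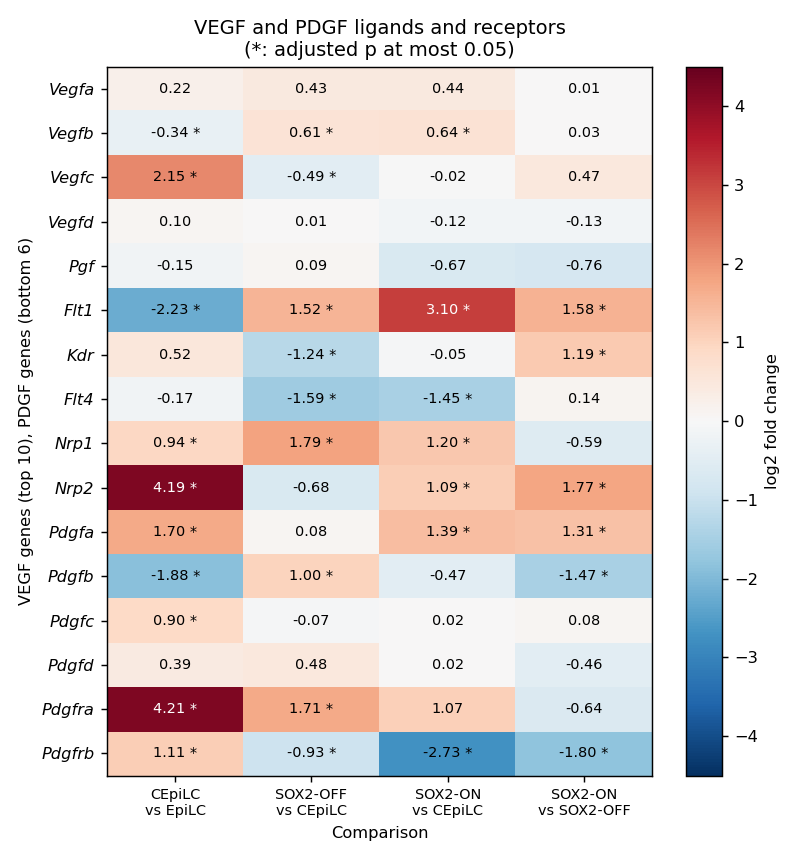
Log2 fold changes (colour and numbers) of VEGF and PDGF ligands and receptors (vertical axis) in 4 comparisons (horizontal axis), with an asterisk at an adjusted p of at most 0.05. Flt1 and Pdgfra carry some of the largest changes, such as 3.10 for Flt1 between SOX2-ON and CEpiLC, while Vegfa has no asterisk in these 4. The comparisons of SOX2-OFF and SOX2-ON with EpiLC, in which Vegfa was called higher, are not shown.

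Etv2 and Tal1, which act early in endothelial and blood fates, were highest in CEpiLC and were both low in the SOX2 TetON groups. Etv2 read 8.16, 6.15 and 7.9 TPM in EpiLC and 13.6, 16.7 and 9.38 in CEpiLC, while the SOX2-OFF libraries read 2.5, 3.45 and 1.16 and the SOX2-ON libraries 1.66, 1.15 and 0.52. CEpiLC lay above EpiLC and EpiLC above both SOX2 TetON groups, which overlapped with each other. Etv2 was lower than in CEpiLC by -2.40 in SOX2-OFF (SE 0.34, adjusted p = 7.09e-05, edgeR) and by -3.58 in SOX2-ON (SE 0.37, adjusted p = 4.12e-06, edgeR). The rise of 0.86 from EpiLC to CEpiLC (SE 0.30, adjusted p = 0.0324, edgeR) was lost when CEpiLC replicate 1 (adjusted p = 0.077) or 2 (0.124) or EpiLC replicate 1 (0.0525), 2 (0.118) or 3 (0.0653) was left out. SOX2-ON against SOX2-OFF gave -1.19 (SE 0.44, adjusted p = 0.0612, edgeR), which was called by DESeq2 (adjusted p = 0.0394) and without CEpiLC replicate 3 (0.0499), SOX2-OFF replicate 3 (0.0267) or SOX2-ON replicate 1 (0.0384). It was also called with the replicate number as a block in the model (adjusted p = 0.0492, edgeR).

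Tal1 had 24, 20 and 15 counts in EpiLC, 72, 82 and 10 in CEpiLC, while the SOX2-OFF libraries read 4, 4 and 0 and the SOX2-ON libraries 5, 0 and 2. In TPM these were 0.53, 0.48 and 0.52, then 1.19, 2.02 and 0.43, then 0.11, 0.1 and 0, and last 0.12, 0 and 0.05. Both SOX2 TetON groups lay below every wild-type library, and CEpiLC replicate 3 read below the EpiLC libraries in TPM. Tal1 was lower than in CEpiLC by -3.93 in SOX2-OFF (SE 0.68, adjusted p = 0.000359, edgeR) and by -4.32 in SOX2-ON (SE 0.69, adjusted p = 0.000144, edgeR), the latter -5.42 without SOX2-ON replicate 1 (adjusted p = 0.000379). SOX2-ON against SOX2-OFF gave -0.39 (SE 1.07, adjusted p = 0.825, edgeR), where the depth could not show a difference. The rise of 1.3 from EpiLC to CEpiLC (SE 0.49, adjusted p = 0.049, edgeR) was lost with DESeq2 (adjusted p = 0.0811) and RLE scaling (0.051). It was also lost without CEpiLC replicate 1 (0.0839) or 2 (0.241), EpiLC replicate 1 (0.0998), 2 (0.127) or 3 (0.102), SOX2-OFF replicate 1 (0.0605) or 2 (0.0607), or SOX2-ON replicate 3 (0.0526). Etv2 and Tal1 correlated over the 12 libraries with Pearson's r = 0.93 of log2 CPM, as a description. In CEpiLC replicate 3, where the paraxial genes were highest, Etv2, Tal1 and Kdr had their lowest CEpiLC values.

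Lmo2, which bridges TAL1 and its DNA-binding partners, took another course. It read 2.53, 3.33 and 3.01 TPM in EpiLC and 21.3, 21 and 30 in CEpiLC, while the SOX2-OFF libraries read 14.2, 8.44 and 24.2 and the SOX2-ON libraries 11, 8.83 and 14.4. The EpiLC values lay below all others, and Lmo2 had the highest mean level of the 10 genes in CEpiLC (24.1 ± 5.11 TPM, SD, n = 3), above 76.9% of all genes in the table. It rose from EpiLC to CEpiLC by 3.02 (SE 0.35, adjusted p = 2.06e-05, edgeR), and was lower in SOX2-ON than CEpiLC by -1.10 (SE 0.31, adjusted p = 0.00767, edgeR). SOX2-OFF against CEpiLC gave -0.61 (SE 0.30, adjusted p = 0.116, edgeR), which became -1.07 without SOX2-OFF replicate 3 (adjusted p = 0.00499), the highest SOX2-OFF library. With the replicate number as a block in the model it was -0.67 (adjusted p = 0.0165, edgeR). SOX2-ON against SOX2-OFF gave -0.50 (SE 0.31, adjusted p = 0.261, edgeR), and -0.81 without SOX2-OFF replicate 2 (adjusted p = 0.0472).

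**Figure D4:**
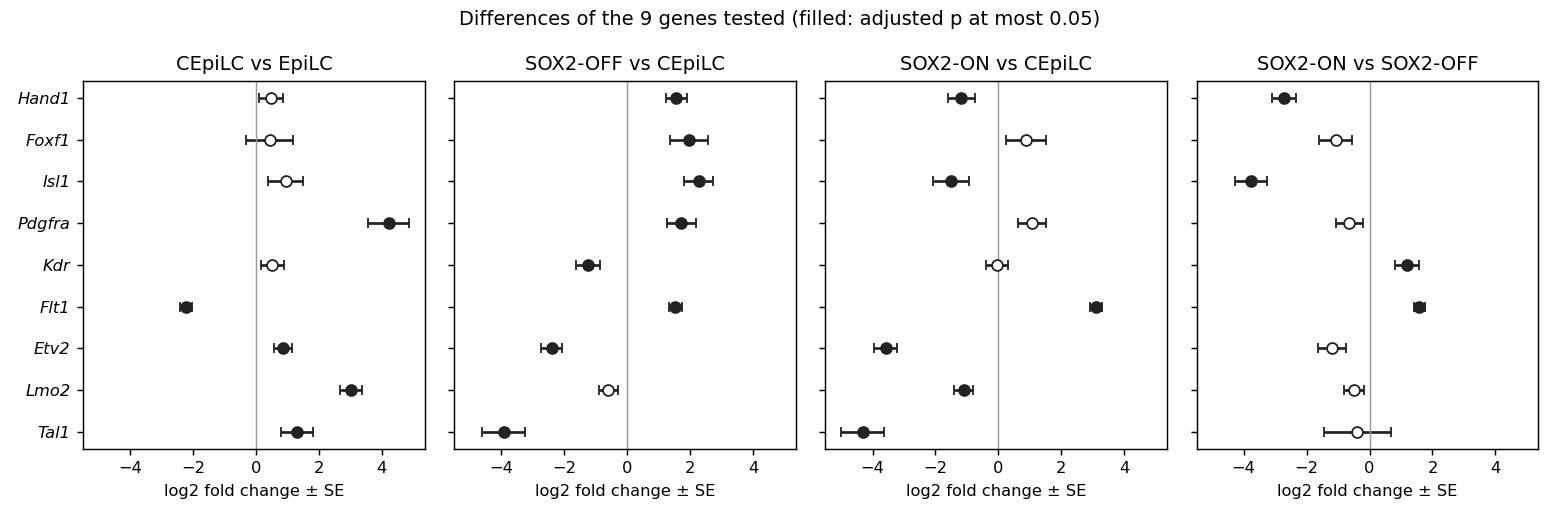
Log2 fold change ± SE (horizontal axes) of the 9 genes tested (vertical axis) in 4 comparisons. Filled points had an adjusted p of at most 0.05 by edgeR. Hand1 and Isl1 are higher in SOX2-OFF and lower in SOX2-ON relative to CEpiLC, while Etv2 and Tal1 are lower in both.

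Most general partners of TAL1 and LMO2 remained expressed where Tal1 itself was at or near 0. Tcf3 and Tcf12, which encode E proteins, read 69.3 to 96 and 56.2 to 94.1 TPM over all 12 libraries, and Ldb1, the scaffold that LMO2 binds, read 63.5 to 93.6. Ldb2, a second scaffold gene, read 1.39, 1.7 and 1.58 TPM in CEpiLC, while the SOX2-OFF libraries read 0.19, 0.5 and 0.35 and the SOX2-ON libraries 0.04, 0.05 and 0.05. It was lower than in CEpiLC by -2.12 in SOX2-OFF (SE 0.35, adjusted p = 0.000274, edgeR) and by -5.0 in SOX2-ON (SE 0.49, adjusted p = 2.36e-06, edgeR). The Id genes encode inhibitors of bHLH factors. Id3 read 86.6, 63.6 and 54.2 TPM in CEpiLC, while the SOX2-OFF libraries read 20.3, 26.4 and 26.1 and the SOX2-ON libraries 88.5, 87.2 and 120, and was higher in SOX2-ON than SOX2-OFF by 1.97 (SE 0.18, adjusted p = 6.36e-06, edgeR). Id4 was higher in SOX2-ON by 2.81 (SE 0.28, adjusted p = 1.09e-05, edgeR). Of these 11 partner genes, 3 rose and 2 fell from EpiLC to CEpiLC, 1 was higher and 7 were lower in SOX2-OFF than CEpiLC, 3 were higher and 4 lower in SOX2-ON than CEpiLC, and 4 were higher and 2 lower in SOX2-ON than SOX2-OFF. The median log2 differences were 0.12, -0.32, -0.14 and 0.17. Among all genes tested, 22.1% rose and 20.1% fell from EpiLC to CEpiLC. In the other comparisons, in that order, 23.6, 27.9 and 14.8% were higher and 24.9, 28.6 and 14.1% lower.

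Endothelial and blood genes did not follow Etv2 and Tal1 as a group. Of 21 such genes, 11 were tested, of which 1 rose and 2 fell from EpiLC to CEpiLC (median 0.11), and 4 were higher and 4 lower in SOX2-OFF than CEpiLC (median 0.57). In SOX2-ON, 7 were higher than in CEpiLC (median 0.996), and 4 were higher than in SOX2-OFF (median 0.22). Without SOX2-ON replicate 3, 4 were higher and 2 lower in SOX2-ON than SOX2-OFF, and 6 were higher and 1 lower than in CEpiLC. Without CEpiLC replicate 3, 7 were higher and 1 lower in SOX2-ON than CEpiLC. The shares of all genes higher and lower were 22.1 and 20.1% in CEpiLC against EpiLC and 23.6 and 24.9% in SOX2-OFF against CEpiLC. For SOX2-ON they were 27.9 and 28.6% against CEpiLC and 14.8 and 14.1% against SOX2-OFF. Beside Kit, the 4 genes of the list higher in SOX2-ON than SOX2-OFF were Pecam1, Tek and Cd34, which encode surface proteins of endothelial or blood progenitors. Pecam1 read 1.35, 1.47 and 0.85 TPM in CEpiLC, while the SOX2-OFF libraries read 0.71, 0.33 and 0.32 and the SOX2-ON libraries 4.49, 4.46 and 2.52. Its difference between SOX2-ON and SOX2-OFF was 2.98 (SE 0.34, adjusted p = 3.21e-05, edgeR), that of Tek 1.58 (SE 0.31, adjusted p = 0.00201, edgeR) and that of Cd34 1.76 (SE 0.14, adjusted p = 2.41e-06, edgeR). Cd34 and Tek had their highest means in EpiLC, with 11.5 and 1.47 TPM, against 9.06 and 1.31 in SOX2-ON. Pecam1 averaged 1.05 TPM in EpiLC and 3.82 in SOX2-ON, and Kit was also highest in SOX2-ON. Runx1, a factor of blood stem cells, was higher than in CEpiLC by 2.62 in SOX2-OFF (SE 0.25, adjusted p = 2.88e-06, edgeR) and by 2.93 in SOX2-ON (SE 0.25, adjusted p = 7.38e-07, edgeR). Sox7, which is also among the extraembryonic endoderm markers, read at most 0.16 TPM in CEpiLC, 5.96 to 7.32 in SOX2-OFF and 3.69 to 7.86 in SOX2-ON. Levels within the list differed widely. Egfl7, which encodes a protein secreted by endothelial cells, read 20.3 to 41.1 TPM over all 12 libraries and Cd34 2.16 to 12.8. Cdh5, the cadherin of endothelial junctions, read at most 0.64 TPM, Tie1 at most 0.06, and the embryonic globin genes Hba-x and Hbb-bh1 were at 0 in all 12 libraries.

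BMP signals are known to favour lateral over paraxial fates, and most genes for BMP ligands and antagonists rose from EpiLC to CEpiLC, with 5 of 7 called and a median log2 difference of 1.83. Of all genes, 22.1% rose and 20.1% fell there. Relative to EpiLC, 6 were higher and 1 was lower in SOX2-OFF, where 31.5% of all genes were higher and 30.6% lower. In SOX2-ON 5 were higher and 2 lower than in EpiLC, where 30.7% of all genes were higher and 29.1% lower. The ligand Bmp7 read 2.74, 3.73 and 2.94 TPM in EpiLC and 9.52, 10.3 and 14 in CEpiLC, while the SOX2-OFF libraries read 24.8, 23.6 and 23.3 and the SOX2-ON libraries 23.9, 23.4 and 23.5. It was higher than in CEpiLC by 1.12 in SOX2-OFF (SE 0.13, adjusted p = 1.59e-05, edgeR) and by 1.05 in SOX2-ON (SE 0.13, adjusted p = 1.93e-05, edgeR). The antagonist Nog read 1.39, 3.86 and 4.01 TPM in CEpiLC, while the SOX2-OFF libraries read 2.64, 2.63 and 2.77 and the SOX2-ON libraries 0.17, 0.06 and 0, and was lower in SOX2-ON than SOX2-OFF by -4.96 (SE 0.64, adjusted p = 8.4e-05, edgeR). The antagonists did not share 1 course. Grem1 was called higher in both SOX2 TetON groups than in CEpiLC. Its SOX2-OFF mean was 2.86 TPM and its SOX2-ON mean 4.49, against 0.6 for CEpiLC. Chrd had means of 1.3 and 1.31 TPM in these groups, against 2.96 for CEpiLC. In SOX2-OFF 3 of the 7 were higher and 2 lower than in CEpiLC (median 0.22), in SOX2-ON 3 were higher and 3 lower (median 0.49), and between SOX2-ON and SOX2-OFF 1 was lower (median -0.05). The shares of all genes higher and lower were 23.6 and 24.9%, 27.9 and 28.6%, and 14.8 and 14.1% there, in that order.

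Paraxial mesoderm genes mark the neighbouring fate. Of 14 such genes, 8 rose from EpiLC to CEpiLC (median 3.23), 2 were higher and 7 lower in SOX2-OFF than CEpiLC (median -0.98), 2 were higher and 9 lower in SOX2-ON than CEpiLC (median -3.71), and 2 were higher and 5 lower in SOX2-ON than SOX2-OFF (median -1.47). Of all genes, 22.1% rose and 20.1% fell in the first of these comparisons. In the others, in that order, 23.6, 27.9 and 14.8% were higher and 24.9, 28.6 and 14.1% lower. The count of 2 higher in SOX2-ON than SOX2-OFF was near its share. Without CEpiLC replicate 3, 1 was higher and 4 lower in SOX2-OFF than CEpiLC (median -0.42), and without SOX2-ON replicate 3, 1 was higher and 5 lower in SOX2-ON than SOX2-OFF. Relative to EpiLC, 10 were higher and 2 lower in SOX2-OFF, and 3 were higher and 2 lower in SOX2-ON, or 2 and 1 without SOX2-ON replicate 3. With all 12 libraries, the shares of all genes higher and lower than in EpiLC were 31.5 and 30.6% in SOX2-OFF. In SOX2-ON they were 30.7 and 29.1%. Their sums were 279, 366 and 1139 TPM in CEpiLC, 219, 205 and 380 in SOX2-OFF and 45 to 50.6 in SOX2-ON. In SOX2-OFF, replicate 3 was the highest for this sum, for Mesp1, for Isl1 and for Lmo2.

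Set against EpiLC, which received no CHIR99021, the SOX2 TetON groups differed in cell line and in CHIR99021 together. In SOX2-OFF, 5 of the 9 genes were higher and 3 lower than in EpiLC, where 31.5% of all genes were higher and 30.6% lower. In SOX2-ON, 3 were higher and 2 lower, where 30.7% of all genes were higher and 29.1% lower. The largest difference was that of Pdgfra, with log2 fold changes of 5.92 in SOX2-OFF and 5.28 in SOX2-ON. Lmo2 was higher in SOX2-OFF by 2.42 and in SOX2-ON by 1.92, and Etv2 was lower by -1.54 and -2.73. Tal1 was lower by -2.63 and -3.02, the latter -4.12 without SOX2-ON replicate 1 (adjusted p = 0.00416, edgeR), and Flt1 was lower in SOX2-OFF by -0.70 and higher in SOX2-ON by 0.87. Foxf1 was higher in SOX2-OFF by 2.40, which became 1.78 without SOX2-OFF replicate 3 (adjusted p = 0.0226, edgeR) and 1.80 once the shift of chromosome 8 was taken out (adjusted p = 0.0256, edgeR). Its difference of 1.32 in SOX2-ON was not called. Isl1 and Hand1 exceeded EpiLC in SOX2-OFF by 3.20 and 2.03, while in SOX2-ON their differences were -0.57 and -0.70 and were not called. Kdr did not differ from EpiLC at the threshold in SOX2-OFF (-0.72, adjusted p = 0.124, edgeR), but did so without EpiLC replicate 2 (-1.0, adjusted p = 0.0402) or SOX2-OFF replicate 3 (-1.22, adjusted p = 0.014).

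For each gene, the genes with the most similar pattern over the 12 libraries were taken by Pearson's r of log2 CPM, as a description, since the libraries share 4 groups. Zc3hav1 was most like Pdgfra (r = 0.992), Klf12 most like Etv2 (r = 0.982), Tfe3 most like Flt1 (r = 0.977) and Pid1 most like Lmo2 (r = 0.972). Wasf1 was most like Isl1 (r = 0.955), Chrd most like Tal1 (r = 0.953), Cxxc1 most like Foxf1 (r = 0.949), Reep5 most like Hand1 (r = 0.948) and Lemd1 most like Kdr (r = 0.915). Chrd, a BMP antagonist, read 3.15, 3.87 and 1.87 TPM in CEpiLC and 1.15 to 1.57 in the 6 SOX2 TetON libraries. Hoxa5, an anterior Hox gene, was also among the 3 genes most like Lmo2 (r = 0.964), with 2.31 to 4.84 TPM in CEpiLC, 0.86 to 2.35 in SOX2-OFF, 0.51 to 1.18 in SOX2-ON and at most 0.06 in EpiLC.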

How the data were processed

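Polyadenylated RNA of 12 cultures was sequenced as strand-specific single-end reads of 76 bp. The authors trimmed reads with cutadapt 1.16, aligned them with STAR 2.5.2a to mm10 and quantified RefSeq genes with RSEM 1.3.0 with strand taken into account. The deposited table holds for each gene and library an expected count and a TPM value, and replicates were not pooled. The authors tested genes with DESeq2 1.16.1. Reads shared between similar genes are split by estimate, and 2.59 to 3.43% of the expected counts of a library were not whole.

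Here the expected counts were rounded, and TPM served for levels only. Genes were filtered with filterByExpr (minimum count 10) and tested in edgeR 4.0.16 (R 4.3.3, limma 3.58.1) with TMM scaling, in 1 model of all 12 libraries, for 6 comparisons, with Benjamini-Hochberg adjustment over 14196 genes. Standard errors were derived from the F statistic. The biological coefficient of variation common to all genes was 0.105. The procedure was tested on simulated data. Counting intervals cover counting error only, since the reads carry no molecular identifiers.

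The genes, gene lists and tests were chosen with earlier results of these data known. Named beside the 10 genes were genes of the lists called with an absolute log2 fold change over 1 in the comparison described, abundant or absent markers, nearest tested neighbours and the 3 genes of most similar pattern. Genes named for a level outside that rule were chosen after their values were seen. Positions and promoters came from RefSeq GRCm38.p6. Alternatives were RLE scaling, 2 other filters, DESeq2 1.42.0, a replicate block, a fit of the 6 libraries compared, removal of chromosome shifts and leaving out each library. Counts in the gene lists without CEpiLC replicate 3 or SOX2-ON replicate 3 were added after seeing the data.

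No replicate pair was a library deposited again (chi-square per degree of freedom 7.54 to 42.6). EpiLC and CEpiLC libraries with the same number deviated together from their group means (r of 0.12, 0.132 and 0.103), so their numbers were taken as pairs on that evidence only. The other 5 comparisons each had a correlation under 0.1. Some of their correlations were higher, with 0.0526, 0.179 and 0.173 for SOX2-OFF and 0.0637, 0.201 and 0.163 for SOX2-ON against CEpiLC. The cut at 0.1 therefore cannot settle which comparisons are paired, and the main tests used no pairing. Labels give no sequencing batch.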

Additional observations from a re-analysis of the deposited data

How the results depend on the processing

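Each of the 54 differences (9 genes in 6 comparisons) was recomputed under 19 alternatives. Of these 1026 values, 972 kept their direction and their side of the threshold, 35 lost the call, 15 gained it and 4 changed sign. Those 4 belonged to differences that were not called. With each library left out in turn, Kdr in SOX2-ON against CEpiLC ran from -0.25 to 0.12 and turned positive without CEpiLC replicate 1 (0.03), CEpiLC replicate 2 (0.12) or SOX2-ON replicate 2 (0.06), and Tal1 in SOX2-ON against SOX2-OFF ran from -1.49 to 0.17, positive without SOX2-ON replicate 2. The cause of these changes was not tested. When each library was left out in turn, the genes called numbered 3 to 5 for CEpiLC against EpiLC, 6 to 8 for SOX2-OFF against CEpiLC, 4 to 6 for SOX2-ON against CEpiLC, 3 to 5 for SOX2-ON against SOX2-OFF, 8 to 9 for SOX2-OFF against EpiLC and 5 for SOX2-ON against EpiLC. The share of all genes called moved as well. In these comparisons, in that order, it ran from 33.9 to 43.2%, 41.8 to 49.2%, 50.7 to 56.2%, 21.7 to 30.4%, 56.2 to 62.7% and 53.8 to 60.6%. The 3 calls of CEpiLC against EpiLC that remained throughout were Pdgfra, Flt1 and Lmo2. No other alternative moved a count by more than 1.5 times.

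The replicate number as a block gave 5 calls for CEpiLC against EpiLC, the comparison in which the numbers were taken as pairs, with no call changed. In the comparisons not taken as paired, the block gave 9 calls for SOX2-OFF against CEpiLC (Lmo2 added), 7 for SOX2-ON against CEpiLC (Pdgfra added) and 6 for SOX2-ON against SOX2-OFF (Pdgfra and Etv2 added), and changed no call against EpiLC. The block raised the share called among all genes too. That share went from 42.2 to 45.7% for CEpiLC against EpiLC. For the comparisons that gained calls it went from 48.5 to 51.3%, from 56.5 to 59.1% and from 28.8 to 32.6%, in that order. All 6 libraries correlated best with their own number in each of the 3 comparisons among CEpiLC, SOX2-OFF and SOX2-ON, as 5 of 6 did for SOX2-ON and 2 of 6 for SOX2-OFF against EpiLC, a hint from the data and not from the design.

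With no filter on low counts, Hand2 was tested and called higher than in CEpiLC in SOX2-OFF (adjusted p = 0.0225) and SOX2-ON (adjusted p = 0.00529) by edgeR, from few counts. Depth limits Hand2, Foxf1 and Tal1 most, whose highest library in the SOX2 TetON groups held 10, 23 and 5 counts.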
